A study of Drosophila melanogaster with 107 samples.

Results

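The genes described here are the translation initiation factors of Drosophila melanogaster, taken as every row whose gene symbol starts with eIF, with that capitalisation, in the 2 deposited tables. The rule found 32 genes of 17050 in each table and used no measured value. Initiation factors bring the initiator tRNA and the small ribosomal subunit to the 5′ cap of an mRNA, scan to the start codon and join the large subunit. eIF1A acts in scanning and start codon choice, eIF2 carries the initiator tRNA, eIF2B reloads eIF2 with GTP, and eIF3 is a large scaffold on the small subunit. The cap complex holds eIF4E, which binds the cap, the helicase eIF4A and the scaffold eIF4G, while eIF5 triggers GTP hydrolysis by eIF2 and eIF5B joins the subunits. In neurons, translation is known to be controlled largely at initiation, through eIF2 phosphorylation and through proteins that hold eIF4E.

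The study followed γ neurons of the mushroom body, a brain centre for olfactory learning, through metamorphosis, when these neurons prune their larval axons and grow adult ones. Ecdysone acting through its receptor EcR starts this programme. Each library held 1000 cells sorted for the red nuclear reporter RedStinger from flies kept at 25 °C, with sexes taken at random, and poly(A) RNA was read from its 3′ end by MARS-seq. The developmental table has 64 libraries. Its γ neurons carried UAS-RedStinger driven by 71G10 in a y,w background, and were taken at the second and the third larval instar (L2 and L3), every 3 h from 0h to 30h after puparium formation, and in adults aged 3 to 5 days. There were 3 libraries at L2, L3, 3h and 21h and 4 at every other stage. Adult αβ neurons, another mushroom body type, were marked by NP3061-GAL4. Adult non-mushroom-body (non-MB) neurons were marked by C155-GAL4 with MB247-GAL80, which blocks the driver in the mushroom body. Adult astrocyte-like glia were marked by alrm-Gal4 and also carried UAS-CD8:GFP and UAS-Dcr2. Each of these adult types had 4 libraries. The perturbation table has 43 libraries of γ neurons at L3, 0h, 6h and 12h, each group holding 2 or 3. Its Control had the same strain as the developmental γ neurons, and the other groups are labelled EcR-DN, a dominant negative EcR, E75 RNAi and Sox14 RNAi. The labels give no further genotype for those 3. Nothing in the labels says that replicate libraries came from separate animals or sorts, so p-values measure the spread between libraries, which may be technical.

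The deposited values are counts that the authors normalised and rounded, called values below, and the 2 tables were scaled separately. Library totals were 1343651 to 2068007 in the developmental table and 1896123 to 2501051 in the perturbation table. The mushroom body marker sum was 11806 to 34786 in γ libraries, and the astrocyte-like marker sum was 37037 to 52988 in the astrocyte-like libraries against at most 840 in any other developmental library. In the perturbation table, Sox14 RNAi library A at L3 and library A at 0h stood apart from their own groups. They did so in mamo, hdc and Eip75B, genes chosen after their values were seen. The gene mamo was 78696 in that L3 library against 22713 and 29434 in the other L3 libraries, and 13274 in that 0h library against 89852 and 64519 in the other 0h libraries. The gene hdc showed the same pattern, at 38117 against 17538 and 20006, and 13501 against 36986 and 32720. So did Eip75B, at 33790 against 21940 and 23674, and 13480 against 36983 and 29604. These 2 libraries are called doubted below. Over the 8656 genes tested, 5 of the 6 Sox14 RNAi libraries at L3 and 0h, these included, correlated better with the other stage than with their own. The doubted library at L3 gave 0.8986 with its own stage and 0.9089 with the other, and that at 0h 0.8873 and 0.9133. Libraries B and C gave 0.9094 to 0.924 with their own stage and 0.9136 to 0.9237 with the other. The references for libraries B and C held the doubted libraries, while those for the doubted libraries held only libraries B and C. In mamo, hdc and Eip75B, too, each doubted library lay nearer libraries B and C of the other stage. Whether the doubted libraries were exchanged was not tested. Sox14 itself was 1037 to 1154 at L3 and 939 to 1118 at 0h in Sox14 RNAi against 6368 to 7474 and 7100 to 7888 in Control, but 428 to 774 against 471 and 503 at 6h and 182 to 378 against 247 to 382 at 12h. Eip75B, the gene of E75, was lower than Control at L3 in the libraries labelled E75 RNAi (14881 to 22294 against 25956 and 33983), overlapped it at 0h, and was higher at 6h (14794 to 19423 against 6318 and 8483). EcR was 1186 to 1249 in EcR-DN and 4007 and 5478 in Control at L3, and 2148 to 2674 against 308 and 347 at 6h. A 3′ end count cannot check a dominant negative protein.

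Of the 32 rows, 26 passed the filter on low values in each table, which asks for a value of at least 10 in 3 developmental or 2 perturbation libraries. The other 6 were eIF3gb and the eIF4E paralogs eIF4E-3, eIF4E-4, eIF4E-5, eIF4E-6 and eIF4E-7. Their highest value in any library was 12, and each was above 0 in at most 10 of the 64 developmental libraries and at most 1 of the 43 perturbation libraries. Among the eIF4E genes found by the rule, eIF-4E (currently named eIF4E1) was thus the only one above trace values. Summed over the 32 genes, initiation factors took 0.348 to 0.559% of a developmental library. The mean share was 0.463% ± 0.0261 (SD, n = 3) at L3, 0.553% ± 0.0063 (SD, n = 4) at 24h and 0.408% ± 0.0192 (SD, n = 4) in adult γ neurons, and 0.371 to 0.377% in the other adult types. In these bulk libraries, fewer cells of a type and less of an mRNA per cell cannot be told apart.

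Among γ neuron stages, 10 of the 26 tested genes differed by limma's F test at an adjusted p under 0.05 (Benjamini-Hochberg over all 8320 genes tested), which is 38.5% against 43.5% of all genes, so the family as a whole was near the background. A gene that passed this threshold is called changed below. By factor, the changed genes were eIF-1A, 1 of 3 eIF2 subunits (eIF-2beta) and 5 of 6 tested eIF3 subunits found by the rule. The others were 1 of 2 eIF4A genes (eIF-4a), eIF-4E and 1 of 2 eIF4G genes (eIF4G2). Subunits under other symbols are outside these counts. None of the 5 eIF2B subunits changed, with adjusted p from 0.0651 to 1, nor did eIF5, eIF5B, eIF6, eIF2D, eIF-4B, eIF4AIII, eIF4G or eIF-5A. Among the 10 changed genes the highest stage mean was 1.82 to 3.73 times the lowest, with a median of 2.18. The turning points were spread over development, and 3 of the 10 had their lowest mean at 0h, 2 in adults and 5 at 5 other stages.

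**Figure D1:**
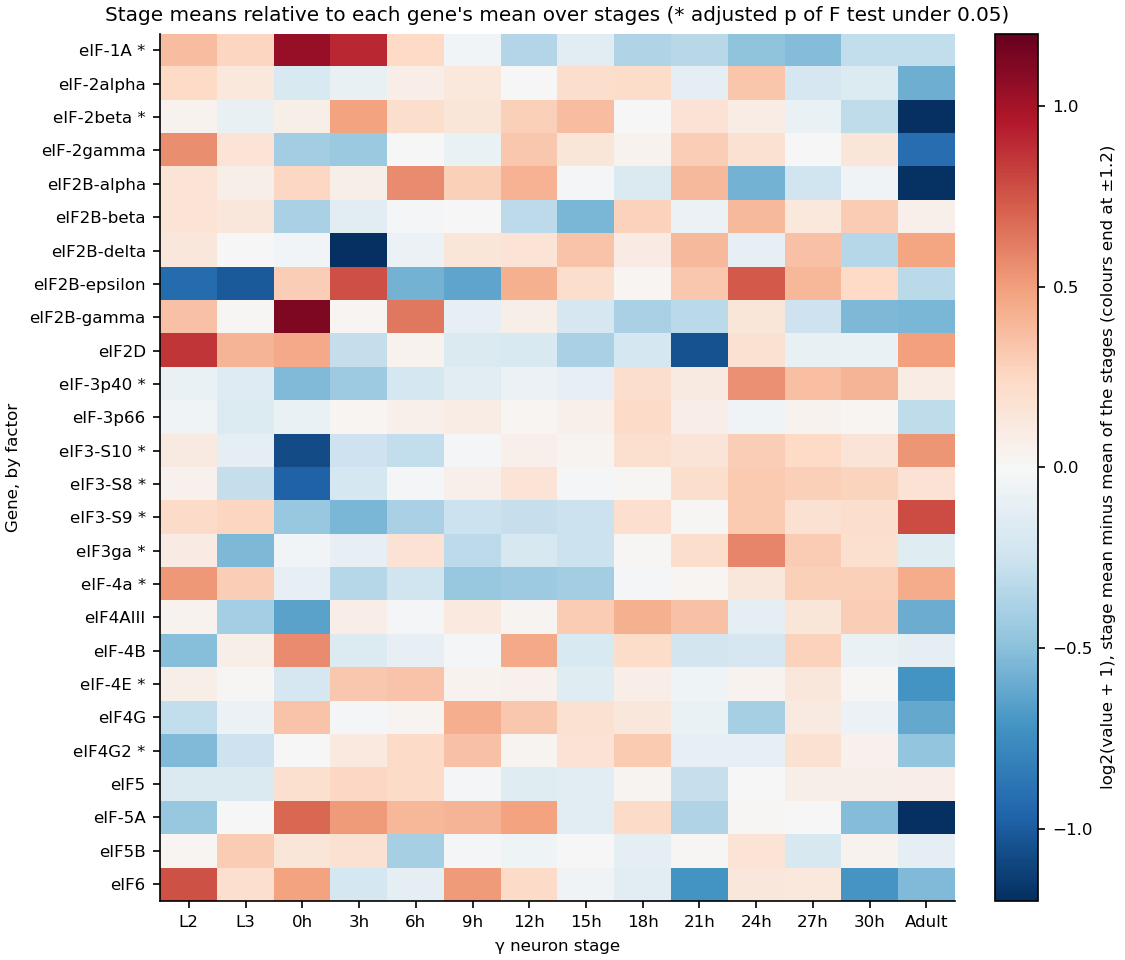
Stage means of the 26 tested genes in γ neurons (columns) as log2(value + 1) minus each gene's mean over the 14 stages, from blue (below) to red (above), with colours ending at ±1.2 and genes ordered by factor. Stars mark the 10 genes that changed by the F test, among them eIF-1A, whose red block lies at 0h and 3h. These genes include 5 of the 6 eIF3 subunits shown, of which eIF3-S10, eIF3-S8 and eIF-3p40 are lowest at 0h.

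eIF-1A, the scanning factor, had the smallest p of the family (F test, limma, adjusted p = 3.13e-15). Its values were 1135, 1004 and 1053 at L3 and 1636, 1984, 1774 and 1964 at 0h. Every 0h library lay above every L3 library, and eIF-1A rose by 0.79 ± 0.16 on the log2 scale (SE, limma, adjusted p = 4e-04). At 3h the values were still 1861, 1450 and 1707. By 6h they were 964, 964, 1279 and 1022, all below the 0h libraries, and the fall from 0h was -0.80 ± 0.15 in log2 (limma, adjusted p = 4.36e-05). A further drop of -0.60 ± 0.15 (limma, adjusted p = 0.00304) followed to 18h, where the values were 637, 737, 720 and 688. From 18h to 30h the difference was 0.06 ± 0.15 and from 30h to adult it was 0.00 ± 0.15, and neither passed. Adult values were 908, 593, 860 and 597, below all L3 libraries, and the difference from L3 was -0.55 ± 0.16 (limma, adjusted p = 0.00926). Leaving out L3 library 2, adult library 2 or adult library 4 gave -0.50, -0.45 and -0.46, with adjusted p = 0.0529, 0.0543 and 0.0549. The rise to 0h and the falls to 6h and 18h passed under every alternative tried. eIF-1A overlaps CG14312 and CG7142 on the opposite strand, and none of the sources used here says whether counting was by strand. CG14312 was below eIF-1A in all 64 libraries, at 24 to 117 at L2, 60 to 97 at 0h, 389 to 505 at 12h and 66 to 100 in adults. The part of overlapping genes in the eIF-1A values was not tested. Most other genes of the family also overlap a gene, and its part in their values was not tested either. Among them, eIF4AIII overlaps Coq2, eIF-2beta ver, eIF2B-delta Mtmr6 and eIF-3p40 senju on the opposite strand. eIF-2gamma overlaps Su(var)3-9 on the same strand. The sum over 6 neuron markers was 5515 to 6327 at 0h against 9745 to 12406 at L3, and its part in the values at 0h was not tested.

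**Figure D2:**
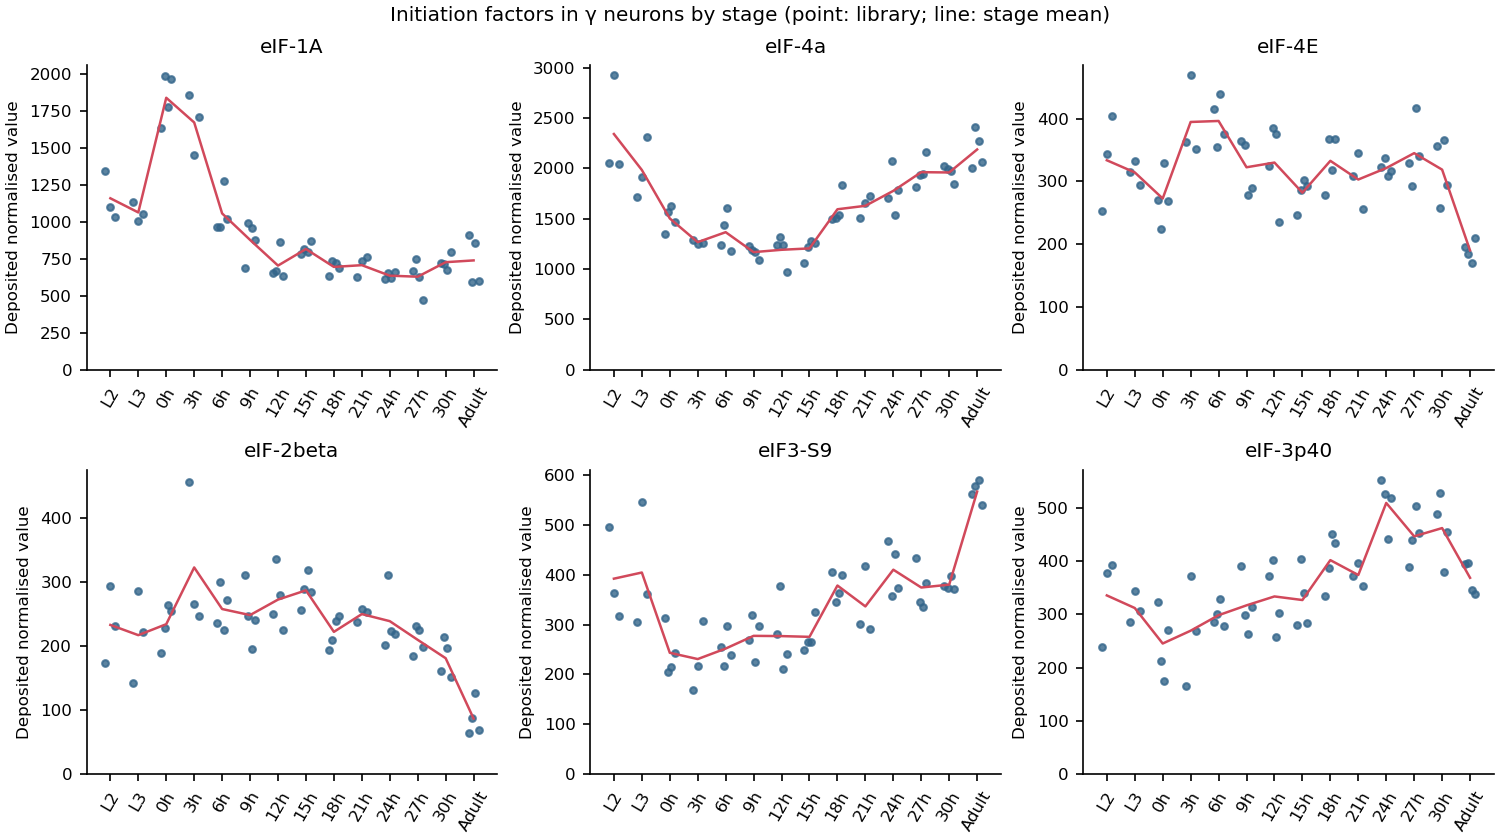
Deposited normalised values of 6 initiation factor genes in γ neurons by stage, from L2 through hours after puparium formation to adult (points, libraries; line, stage mean; all axes start at 0). eIF-1A is at 1636 to 1984 at 0h and 637 to 737 at 18h, eIF-4a dips between 3h and 15h, and eIF-4E and eIF-2beta are lowest in adults.

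In the step from L3 to 0h, 3 of 26 genes changed, 1 up and 2 down, where 8.53% of all genes did (3.12% up and 5.41% down). Beside eIF-1A these were the eIF3 subunits eIF3-S9 and eIF3-S10. From 0h to 6h, 4 changed, 3 up and 1 down, at a background of 11.6% (6.03% up and 5.58% down), and between 6h and 18h 1 did at 12.4%. No gene of the family changed between L2 and L3 (limma, 0.156% of all genes, 1 of 26 at an unadjusted p under 0.05) or between 18h and 30h (limma, 1.29%, also 1 of 26). Over the whole step from 30h to adult 3 changed at 18.6%, between L3 and adult 3, all lower, at 20% (9.34% higher and 10.6% lower) and between L3 and 6h 2 at 15.2% (eIF-4a, and eIF3-S9 at -0.65 ± 0.23, limma, adjusted p = 0.0402, a call lost in 7 of 16 alternatives, and -0.41 with adjusted p = 0.371 without L3 library 3). The median log2 change of the 26 was 0.07 from L3 to 0h against 0.00 for all genes, and -0.28 from 30h to adult against -0.05. At 6h, a sum over 4 cuticle and tracheal markers was 654 to 1155, against at most 113 at any other developmental stage, and its part in values at 6h was not tested.

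eIF3 forms the scaffold on the small ribosomal subunit. Of its 6 tested subunits found by the rule, 3 had their lowest stage mean at 0h and eIF3-S9 at 3h. The lowest mean of eIF3ga was at L3 and that of eIF-3p66 in adults. eIF3-S9 (currently eIF3b), one of the core subunits of eIF3, was 306, 545 and 362 at L3 and 313, 204, 214 and 242 at 0h. The groups overlapped, and the difference of -0.71 ± 0.23 (limma, adjusted p = 0.0352) was lost in 7 of 16 alternatives. Without L3 library 3 or 4, or 0h library 2, 3 or 4, it was -0.47, -0.77, -0.63, -0.65 and -0.71, with adjusted p from 0.0594 to 0.364. In adults eIF3-S9 was 561, 577, 590 and 539, its highest stage mean, against 378, 374, 397 and 371 at 30h. The groups did not overlap, but the rise of 0.58 ± 0.21 (limma, adjusted p = 0.0438) was lost in 11 of 17 alternatives, among them leaving out any of the 8 libraries (adjusted p from 0.0629 to 0.0906) and equal library totals (0.35, adjusted p = 0.271). eIF3-S10 (currently eIF3a) was 117, 199 and 186 at L3, 137, 119, 35 and 84 at 0h, and 158, 134, 145 and 141 at 6h. eIF3-S8 (currently eIF3c) had a mean of 143.7 ± 14.7 (SD, n = 3) at L3 and was 122, 136, 33 and 112 at 0h, and 163, 153, 207 and 169 at 6h. In both genes, 0h library 3 was the lowest of all at that stage. That library had 6844 genes above 0, against 7664 to 7881 in the other 0h libraries, and the part of this difference was not tested. eIF3-S10 fell from L3 to 0h by 0.96 ± 0.29 in log2 and rose to 6h by 0.78 ± 0.26 (limma, adjusted p = 0.0211 and 0.0409), and eIF3-S8 rose from 0h to 6h by 0.95 ± 0.26 (limma, adjusted p = 0.00684). Without 0h library 3 these were -0.55, 0.37 and 0.48, with adjusted p = 0.273, 0.499 and 0.225. The eIF3-S10 fall was also lost without L3 library 3 or 4 (adjusted p = 0.149 and 0.11), and its later rise without 0h library 4 or any 6h library (adjusted p from 0.0583 to 0.101).

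eIF-3p40 (currently eIF3h) was 323, 212, 175 and 271 at 0h, 286, 300, 329 and 279 at 6h, and 553, 526, 441 and 518 at 24h. Every 24h library lay above every 0h and 6h library, with an F test adjusted p of 6.85e-05 (limma). None of the single steps tested changed for eIF-3p40. eIF3ga (currently eIF3g1), the last of the 5 changed subunits, had its lowest stage mean at L3 (146) and its highest at 24h (319.8), with an F test adjusted p of 0.0382. eIF-3p66 (currently eIF3d1) was the exception among the eIF3 subunits tested, with stage means of 65.8 to 98.0 and an adjusted p of 0.992.

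eIF-4a, the helicase that unwinds leaders of mRNAs, followed another course. Its values were 1719, 1918 and 2312 at L3, 1239, 1439, 1601 and 1183 at 6h, 1226, 1184, 1170 and 1090 at 9h, and 2001, 2413, 2273 and 2059 in adults. The 6h libraries all lay below the L3 libraries, a fall of 0.54 ± 0.14 in log2 (limma, adjusted p = 0.00334). Without L3 library 4 it was -0.42 (adjusted p = 0.0631), while every other alternative kept the call. Stage means were 1593 at 18h and 1958 at 30h, and the F test gave an adjusted p of 2.1e-11. eIF4AIII, a related helicase of the exon junction complex, had stage means of 91.0 to 193.5 and did not change (F test, adjusted p = 0.543).

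eIF-4E, the cap-binding protein, was 270, 224, 329 and 268 at 0h and 416, 355, 439 and 375 at 6h. Every 6h library was above every 0h library, and it rose by 0.55 ± 0.18 (limma, adjusted p = 0.0341), a call lost in 7 of 17 alternatives. Without 0h library 1, 2 or 4, or 6h library 1, 3 or 4, the adjusted p was 0.0508 to 0.134. In adults it was 196, 184, 170 and 210, against 356, 258, 366 and 295 at 30h and 315, 333 and 295 at L3. All adult libraries were below all libraries of both stages. The fall from 30h was -0.73 ± 0.18 (limma, adjusted p = 0.00157) and the difference from L3 -0.73 ± 0.19 (limma, adjusted p = 0.00382), and both passed under every alternative. The scaffold eIF4G had stage means of 196.0 in adults to 408.8 at 9h and did not change (F test, adjusted p = 0.375).

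eIF4G2, a second eIF4G gene known in Drosophila mainly from the testis, changed among stages (F test, adjusted p = 0.0147), with means of 505.7 at L2 and 921.5 at 9h. Its values were 72.4 to 100% of those of CG33111, which overlaps it on the same strand, in the developmental libraries, and 91.2 to 100% in the perturbation libraries. CG33111 was at or above eIF4G2 in all 64 and all 43, so the reads of these 2 genes cannot be told apart. CG34355, which overlaps eIF4G2 on the opposite strand, was at or above it in 8 developmental and 22 perturbation libraries. The part of either gene in these values was not tested, and eIF4G2 is uncertain wherever it is named.

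eIF-2beta, a subunit of the initiator tRNA carrier, was 142, 287 and 223 at L3, 161, 214, 198 and 152 at 30h and 64, 87, 127 and 69 in adults. The adult libraries were all below those of both earlier stages. It fell by 1.09 ± 0.23 in log2 from 30h (limma, adjusted p = 0.000265) and stood 1.31 ± 0.25 below L3, at -1.31 in log2 (limma, adjusted p = 4.98e-05), under every alternative. The other subunits also had their lowest means in adults, eIF-2alpha at 133.8 ± 24.9 and eIF-2gamma at 56.0 ± 11.7 (SD, n = 4), but did not change (F test, adjusted p = 0.351 and 0.646).

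eIF-5A (currently eEF5), which acts mainly in elongation and termination despite its symbol, varied widely between libraries of 1 stage. It was 529, 726, 1726 and 446 at 0h and 778, 74, 877 and 887 at 24h, and in adults 242, 153, 144 and 258. Its F test missed the threshold (adjusted p = 0.0562).

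Among adult neurons, no gene of the family changed between γ and αβ neurons (limma, 7.51% of all genes, 3 of 26 at an unadjusted p under 0.05). Between γ and non-MB neurons 4 of 26 changed, 2 up and 2 down, at a background of 14.5% (4.56% up and 9.92% down). eIF3-S9 was 561, 577, 590 and 539 in γ and 290, 250, 305 and 154 in non-MB neurons, with 502, 533, 322 and 516 in αβ neurons. The γ and non-MB groups did not overlap, and the difference was 1.23 ± 0.21 (limma, adjusted p = 9.24e-06). eIF3-S8 was 230, 200, 188 and 175 in γ and 101, 110, 103 and 72 in non-MB neurons, again without overlap, and 192, 156, 184 and 171 in αβ neurons. It was higher in γ neurons by 1.04 ± 0.26 (limma, adjusted p = 0.00214). eIF-4E went the other way, at 196, 184, 170 and 210 in γ against 351, 388, 371 and 354 in non-MB neurons and 245, 286, 210 and 315 in αβ neurons. Its difference was -0.95 ± 0.18 (limma, adjusted p = 6.06e-05), and these 3 calls held under every alternative. eIF-1A was 908, 593, 860 and 597 in γ and 947, 1000, 1135 and 1093 in non-MB neurons, -0.52 ± 0.15 (limma, adjusted p = 0.00993). Leaving out γ library 2 or 4 gave -0.42 and -0.43, with adjusted p = 0.0701 and 0.07.

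**Figure D3:**
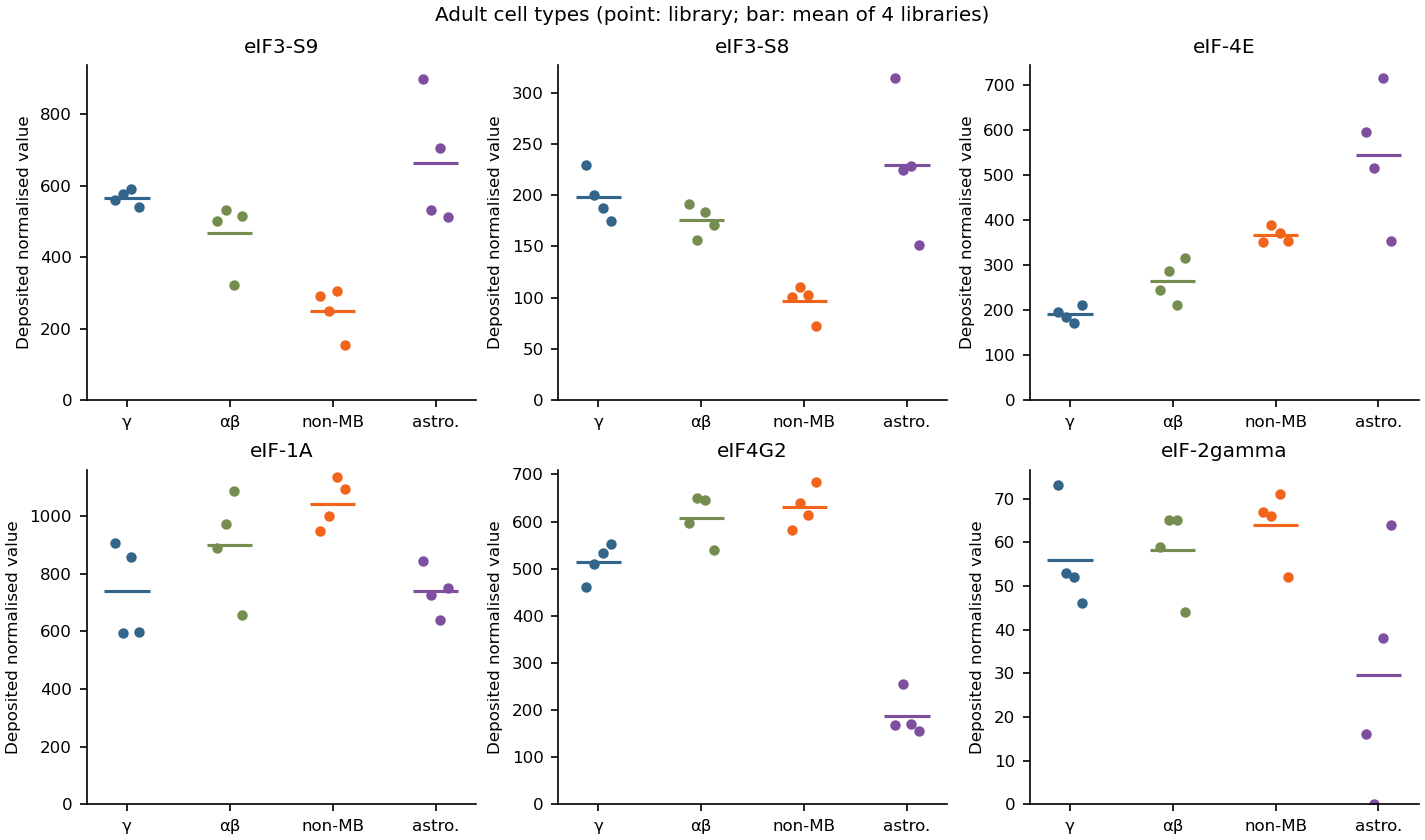
Deposited normalised values of 6 initiation factor genes in adult γ, αβ, non-mushroom-body (non-MB) neurons and astrocyte-like glia (astro.), with 4 libraries each as points, bars at the mean and axes from 0. eIF3-S9 and eIF3-S8 of non-MB neurons lie below those of γ neurons, eIF-4E above, and eIF4G2 is lowest in astrocyte-like glia (at most 255).

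Astrocyte-like glia differed from the mean of the 3 neuron types in 15 of 26 genes, 10 higher and 5 lower. The background was 60% of all genes, 22.6% higher and 37.4% lower, whose median change was -0.45, while the median of the 26 was 0.00. eIF-4E, the cap-binding protein, was 595, 515, 716 and 353 in astrocyte-like glia, with neuron type means of 190.0 to 366.0, higher by 1.004 ± 0.146 (limma, adjusted p = 2.93e-08). The lowest glial library, 353, lay within the non-MB range. eIF-2alpha, the eIF2 subunit that stress kinases phosphorylate, was 262, 108, 499 and 191 in glia, 0.97 ± 0.24 (limma, adjusted p = 0.000399), although one glial library was below the lowest γ library of 116. Without glial library 3 it was 0.60 (adjusted p = 0.0306). eIF-2gamma went down, at 16, 0, 38 and 64 in glia and 44 to 73 in neurons, -2.05 ± 0.42 (limma, adjusted p = 3.36e-05), with glial library 2 listed at 0. Without that library it was -0.77 (limma, adjusted p = 0.0147), and with pseudocount 8 it was -1.24. The glial libraries had 6617, 5850, 6317 and 7308 genes above 0, against 7024 to 8294 in adult neuron libraries. The part of this difference in low glial values was not tested. eIF4G2 had a glial mean of 187.3 ± 45.7 (SD, n = 4) with a highest library of 255, below every neuron library (462 to 684), -1.66 ± 0.18 (limma, adjusted p = 7.72e-12). As above, its reads cannot be told apart from those of CG33111. Of the other 11, 6 lost their call in at least 1 alternative.

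In the perturbation table the Control stages gave few calls, with 2 or 3 libraries each. eIF-1A was 1516 and 1198 at L3, 1619, 1662 and 1746 at 0h, 1261 and 1234 at 6h, and 1045, 708 and 967 at 12h. All 0h libraries were again above those of the other stages, but the steps L3 to 0h and 0h to 6h were 0.31 ± 0.20 and -0.42 ± 0.20 (limma, adjusted p = 0.586 and 0.212). No gene of the family changed between L3 and 0h (limma, 1.54% of all genes, 2 of 26 at an unadjusted p under 0.05), between 0h and 6h (9.51%, 4 of 26) or between 6h and 12h (4.74%, 5 of 26). Between L3 and 6h 1 did at 9.29%, and it was eIF-2beta, with 231 and 192 at L3 and 407 and 515 at 6h (1.12 ± 0.32, limma, adjusted p = 0.0173). Without Control library C at L3 or at 6h it was 0.98 and 0.95 (adjusted p = 0.161 and 0.183).

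EcR-DN neurons had lower eIF-1A. At L3 its values were 710, 584 and 607 against 1516 and 1198 in Control, and at 0h 937, 1169 and 813 against 1619, 1662 and 1746. The groups overlapped at neither stage, and the differences were -1.09 ± 0.20 and -0.80 ± 0.18 (limma, adjusted p = 0.000149 and 0.000993). At 6h the values were 878, 875 and 730 against 1261 and 1234, also without overlap, and the difference of -0.60 ± 0.20 missed the threshold (adjusted p = 0.0666). At 12h they were 837 and 664 against 1045, 708 and 967, a difference of -0.26 ± 0.20 (adjusted p = 0.689). Over the mean of 0h, 6h and 12h, called the pupal mean, it was -0.55 ± 0.11 (limma, adjusted p = 0.000228). The calls at L3, at 0h and for the pupal mean held under every alternative. The pupal effect did not differ from that at L3 beyond the threshold (0.54 ± 0.23, limma, adjusted p = 0.237). EcR-DN libraries also had a higher sum over 6 neuron markers at L3 (19890 to 22954 against 9568 to 11318) and at 0h (20470 to 25972 against 5874 to 7373), and over 8 neuroblast and cell cycle markers at L3 (169 to 341 against 33 to 101) and 0h (122 to 243 against 17 to 85). Their part in the eIF-1A difference was not tested.

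eIF-1A was the only gene of the 26 called at L3 in EcR-DN, at a background of 8.24%. At 0h 3 changed, 2 up and 1 down, at 16.8% (10.4% up and 6.41% down). eIF3-S9 was 734, 857 and 776 in EcR-DN against 341, 590 and 284 in Control at 0h, without overlap, and was higher by 1.03 ± 0.24 (limma, adjusted p = 0.00133). Its pupal mean was higher by 0.63 ± 0.15 (limma, adjusted p = 0.00143), and both calls held under every alternative. At L3 it was 1065, 980 and 1070 against 722 and 757, and did not pass. eIF-4a at 0h was 4125, 3905 and 3589 against 2983, 2719 and 2421, higher by 0.52 ± 0.17 (limma, adjusted p = 0.0289). Without Control library B or C or EcR-DN library A or B at 0h it was 0.52, 0.44, 0.47 and 0.51, with adjusted p from 0.0639 to 0.118. For the pupal mean 5 of 26 changed, 2 up and 3 down, at 16.5% (10.6% up and 5.87% down). Among them eIF4AIII, the exon junction helicase, was 207, 173 and 174 against 322, 234 and 235 at 0h, 129, 209 and 237 against 361 and 368 at 6h, and 221 and 184 against 286, 500 and 410 at 12h. Each of these stages separated the groups, and the pupal mean was lower by -0.80 ± 0.18 (limma, adjusted p = 0.000714), under every alternative, while at L3 the groups overlapped (254, 223 and 190 against 229 and 199). The remaining pupal calls, eIF-4a higher by 0.30 and eIF3ga lower at -0.43 (limma, adjusted p = 0.0421 and 0.0483), were each lost in 14 of 24 alternatives.

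**Figure D4:**
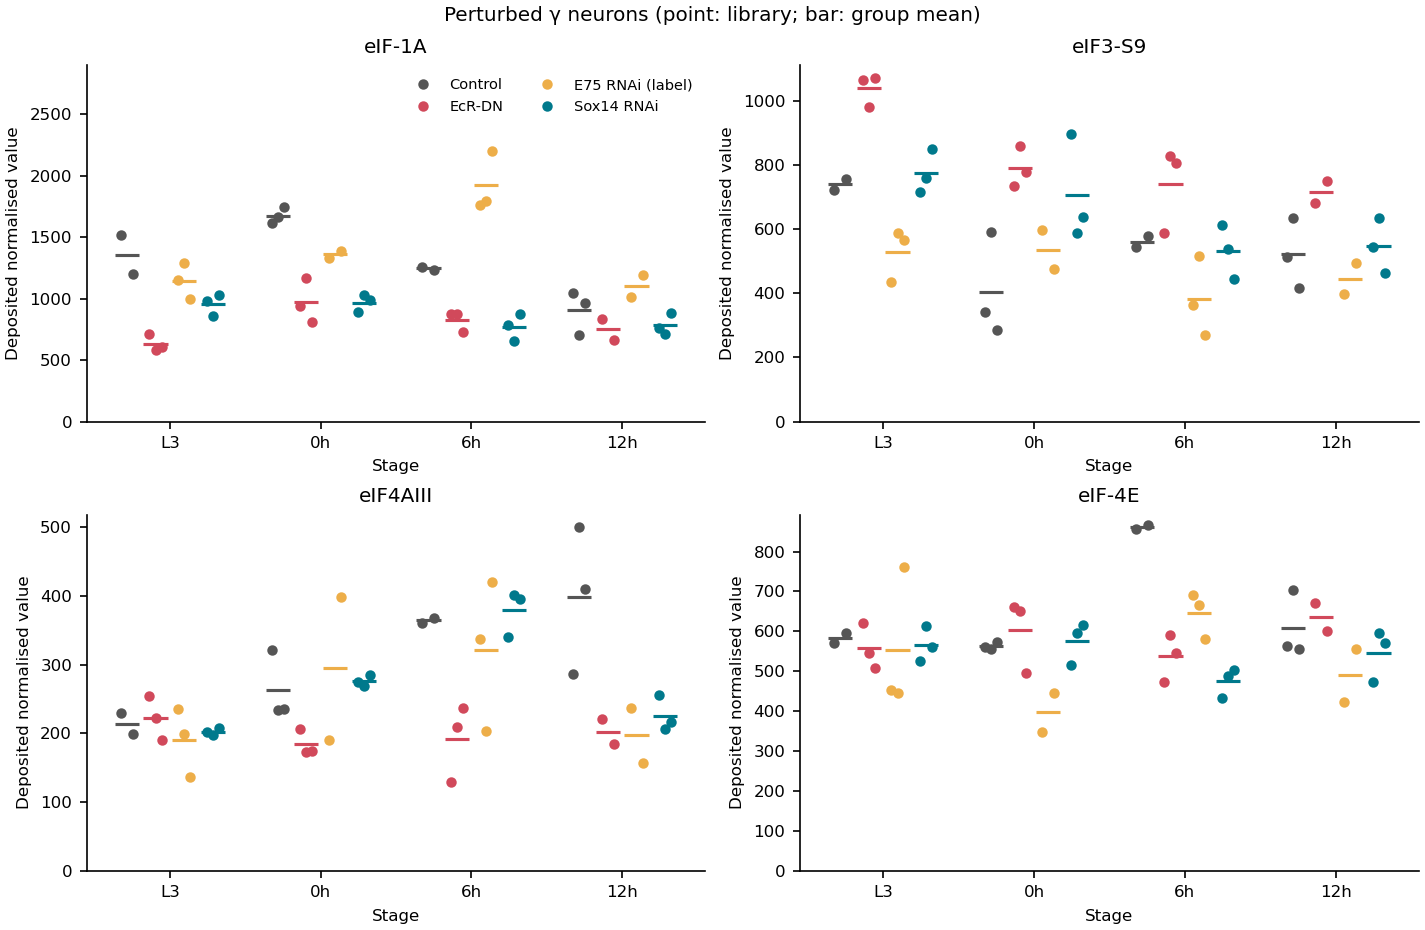
Deposited normalised values of eIF-1A, eIF3-S9, eIF4AIII and eIF-4E in Control, EcR-DN, E75 RNAi (as labelled) and Sox14 RNAi γ neurons at L3, 0h, 6h and 12h (points, libraries, 2 or 3 per group; bars, means; axes from 0). eIF-1A of EcR-DN and Sox14 RNAi lies below Control at 0h and 6h. In the libraries labelled E75 RNAi it lies below Control at 0h and reaches 1765 to 2206 at 6h.

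Sox14 RNAi neurons also had lower eIF-1A in the pupa. At 0h it was 889, 1027 and 988 against 1619, 1662 and 1746 in Control and at 6h 783, 658 and 875 against 1261 and 1234, without overlap. The differences were -0.79 ± 0.18 and -0.70 ± 0.20 (limma, adjusted p = 0.00237 and 0.0247), and the pupal mean was -0.56 ± 0.11 (limma, adjusted p = 0.000225). Without both doubted libraries the call at 0h held. The 0h call was lost when the fit used only the groups compared (adjusted p = 0.0607). The 6h call was lost without Control library A or C or Sox14 RNAi library A or B at that stage (-0.69, -0.72, -0.72 and -0.59, adjusted p from 0.0602 to 0.152). The pupal call held under every alternative. At L3 the values 981, 857 and 1028 were below both Control libraries, and at 12h 762, 714 and 881 overlapped Control, with no call at either stage. At L3 no gene of the 26 changed (limma, 1.74% of all genes, 2 of 26 at an unadjusted p under 0.05). At 0h 2 did at 8.55%, at 6h 2 at 5.98%, at 12h none at 1.61% (limma, 2 of 26 unadjusted), and for the pupal mean 1, lower, at 11.6% (5.27% higher and 6.34% lower).

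The other Sox14 RNAi call at 0h was eIF3-S9, at 895, 588 and 636 against 341, 590 and 284. The groups overlapped, and the difference of 0.85 ± 0.24 (limma, adjusted p = 0.0165) was 0.67 (adjusted p = 0.124) without the doubted libraries. Leaving out Control library A or C at 0h gave 0.76 and 0.63 (adjusted p = 0.0775 and 0.141). The other call at 6h was eIF-4E. Its 6h values were 434, 487 and 504 in Sox14 RNAi and 473, 592 and 547 in EcR-DN against 857 and 867 in Control, while Control at the other stages lay between 556 and 704. The differences were -0.86 ± 0.22 and -0.69 ± 0.22 (limma, adjusted p = 0.00987 and 0.0491), the latter the single EcR-DN call at 6h, where the background was 6.85%. Both rest on the same 2 Control libraries. Without Control library A or C the adjusted p was 0.0789 and 0.0943 for Sox14 RNAi and 0.2 and 0.231 for EcR-DN. Sox14 RNAi without its library A (adjusted p = 0.0546) and EcR-DN without A, B or C (0.184, 0.0574 and 0.0922) also lost the call. At 6h the cuticle and tracheal marker sum was 2668 to 3446 in Control, 593 to 1099 in EcR-DN and 12 to 564 in Sox14 RNAi, and its part was not tested. At 12h no gene of the family changed in EcR-DN (limma, 4.82% of all genes, 1 of 26 at an unadjusted p under 0.05).

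Libraries labelled E75 RNAi differed from EcR-DN and Sox14 RNAi in eIF-1A. Their values were 1335 and 1391 at 0h, 1765, 1797 and 2206 at 6h and 1010 and 1191 at 12h. At 0h both were below all Control libraries (1619, 1662 and 1746), as in EcR-DN and Sox14 RNAi, but with no call. At 6h all were above Control (1261 and 1234), by 0.62 ± 0.20 (limma, adjusted p = 0.0463), a call lost in 8 of 13 alternatives. These were equal library totals (0.44, adjusted p = 0.175), robust variances (adjusted p = 0.11), the replicate block (0.63, adjusted p = 0.0504), only the groups compared (adjusted p = 0.131), and leaving out Control library A or C or E75 RNAi library B or C at 6h (0.63, 0.60, 0.66 and 0.51, adjusted p = 0.168, 0.221, 0.0602 and 0.182). The effect at 6h exceeded that at 0h by 0.91 ± 0.28 (limma, adjusted p = 0.0571), a contrast added after the data were seen. In the E75 RNAi libraries at 6h, Sox14 was 3521 to 4163 against 471 and 503 in Control, where it was 7100 to 7888 at 0h. EcR was 1028 to 1235 against 308 and 347 at 6h. Whether these libraries differed from Control in stage, and its part in values at 6h, was not tested. The direct comparisons do not use Control libraries. Over the pupal mean eIF-1A was 0.76 lower in EcR-DN than in the libraries labelled E75 RNAi (-0.76 ± 0.12, limma, adjusted p = 2.43e-06) and 0.77 ± 0.11 higher in those than in Sox14 RNAi (limma, adjusted p = 7.94e-07), under every alternative. EcR-DN and Sox14 RNAi differed by 0.01 ± 0.11 (limma, adjusted p = 0.983).

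Other calls in libraries labelled E75 RNAi were few. None of the 26 genes changed at L3 (limma, 3.2% of all genes, 0 of 26 unadjusted), at 0h (6.75%, 6 of 26) or at 12h (4.42%, 2 of 26). At 6h 2 changed at 8.39%, and for the pupal mean 2 at 12.6%. Over the pupal mean 21 of the 26 lay below 0, with a median of -0.24 against -0.10 for all genes. At 6h 19 lay below 0, with a median of -0.43 against -0.14. The 32 genes took 0.432 to 0.481% of these libraries at 6h against 0.584 and 0.631% in Control. EcR-DN at 6h was alike, with 20 of the 26 below 0 and a median of -0.38 against -0.02 for all genes. Its shares of 0.452 to 0.516% were also below both Control libraries, while those of Sox14 RNAi at 6h overlapped them (0.5334 to 0.6055%). In the libraries labelled E75 RNAi at 0h the shares were 0.415 and 0.423% against 0.483 to 0.520% in Control. At L3 and 12h the shares overlapped, and none was tested. eIF-5A at 6h was 162, 202 and 118 against 433 and 1329, lower by -2.27 ± 0.68 (limma, adjusted p = 0.0269), and -1.46 (adjusted p = 0.437) without Control library C. Leaving out E75 RNAi library A or C gave adjusted p = 0.0528 and 0.0952. For the pupal mean eIF5B, the subunit-joining GTPase, was higher by 0.54 ± 0.16 and eIF-4E lower by -0.42 ± 0.13 (limma, adjusted p = 0.0165 and 0.0218). eIF5B was lost without E75 RNAi library B at 0h or C at 12h (0.47 and 0.52, adjusted p = 0.0683 and 0.0508), and eIF-4E without Control library C at 6h or B at 12h or E75 RNAi library A at 0h or 12h (adjusted p from 0.0501 to 0.0987).

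**Figure D5:**
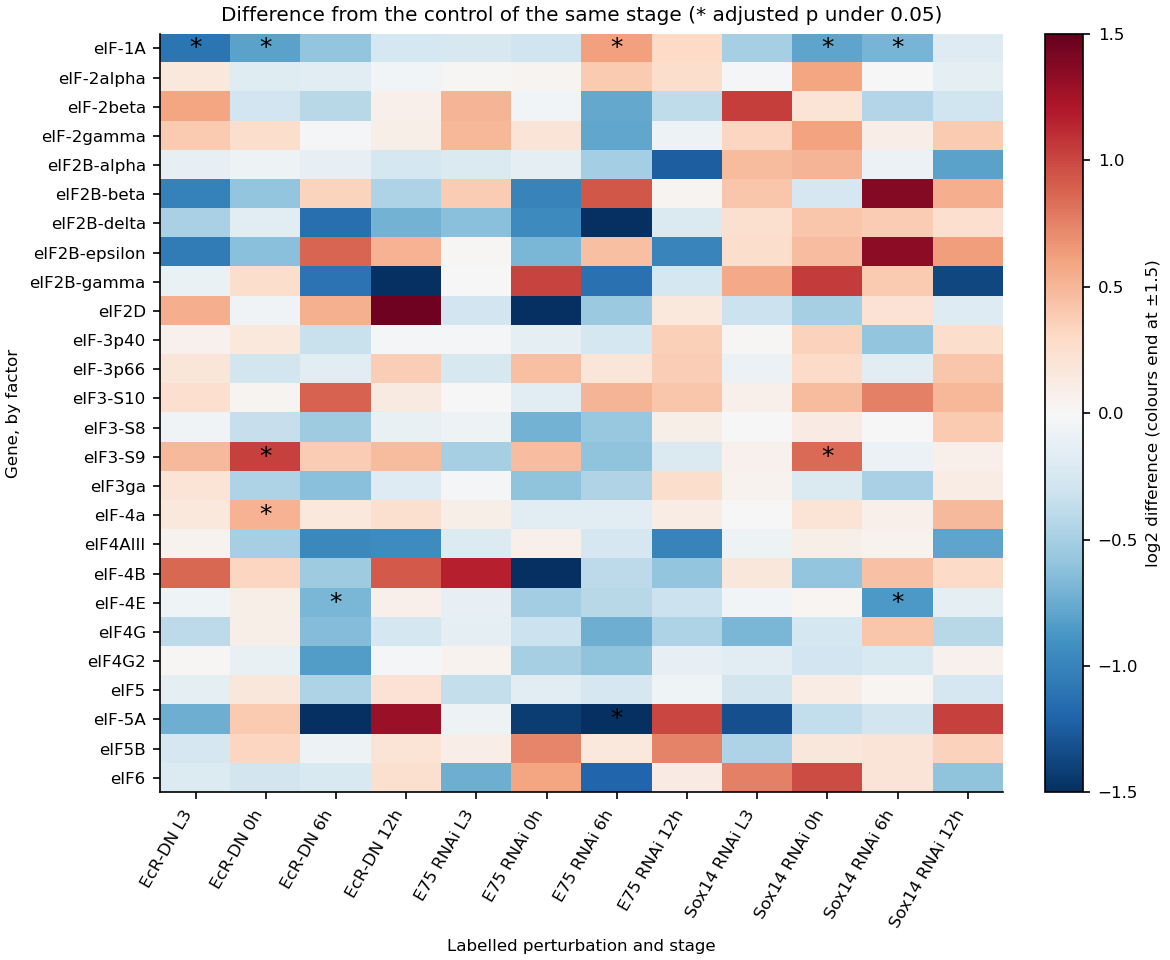
Log2 difference of the 26 tested genes from the Control of the same stage, from blue (lower) to red (higher), with colours ending at ±1.5, genes ordered by factor and stars for an adjusted p under 0.05. Comparisons of 1 stage share their Control libraries. eIF-1A holds 5 of the stars, with EcR-DN at L3 (-1.09) and 0h (-0.80), Sox14 RNAi at 0h and 6h and E75 RNAi at 6h.

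In direct comparisons over the pupal mean, 3 of 26 genes changed between EcR-DN and Sox14 RNAi, all lower in EcR-DN, at a background of 14.7% (9.8% higher and 4.93% lower). eIF4AIII was one, at -0.59 ± 0.17 (limma, adjusted p = 0.0134), lost without EcR-DN library B at 12h (-0.54, adjusted p = 0.0572). Between EcR-DN and the libraries labelled E75 RNAi 4 changed, 3 up and 1 down, at 22.8% (14.1% up and 8.7% down), and eIF3-S9 was higher in EcR-DN by 0.75 ± 0.15 and eIF-4a by 0.38 ± 0.11 (limma, adjusted p = 0.000242 and 0.00976), under every alternative. Between E75 RNAi and Sox14 RNAi 7 changed, 1 up and 6 down, at 22.4% (10.9% up and 11.6% down). The lowest of these was eIF2B-delta, a regulatory subunit of eIF2B. It was 45 and 49, 25, 25 and 33, and 85 and 65 in the libraries labelled E75 RNAi at 0h, 6h and 12h, and 69, 174 and 154, 102, 157 and 95, and 98, 103 and 107 in Sox14 RNAi. The groups did not overlap at any of these stages, and the difference was -1.29 ± 0.34 (limma, adjusted p = 0.00397) under every alternative. No difference between a perturbation's effects at 2 stages passed for any of the 26 genes, with backgrounds of 4.56%, 3.63% and 0.173% for the pupal mean against L3 in EcR-DN, E75 RNAi and Sox14 RNAi (limma, 4, 1 and 2 of 26 at an unadjusted p under 0.05). Between the effects at 0h and L3 the backgrounds were 0.416%, 0.497% and 0.104% (1, 1 and 2 of 26 unadjusted), and between those at 6h and 0h 4.82%, 4.07% and 2.62% (3, 4 and 4 of 26 unadjusted), contrasts added after the data were seen.

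Further genes of the translation pathway were taken from 4 lists, chosen with earlier results of these data known. Their counts stand against all genes, of which 3.12% were higher and 5.41% lower at 0h than at L3, 9.34% and 10.6% in adults than at L3, and 10.6% and 5.87% in EcR-DN over the pupal mean. Among 10 other initiation factors none changed from L3 to 0h, and 1 was higher and 2 lower in adults than at L3, where 20% of all genes changed. Those lower were pAbp, the poly(A)-binding protein that joins the mRNA ends through eIF4G (3141 against 7999, -1.34 ± 0.24, limma, adjusted p = 1.7e-05), and MCTS1, a partner of DENR in reinitiation (51.0 against 101, -0.99 ± 0.31, limma, adjusted p = 0.0158). In EcR-DN 1 of these 10 was higher and none lower over the pupal mean, where 16.5% of all genes changed, and it was Pdcd4, an inhibitor of eIF4A (1840 against 848.8, 1.15 ± 0.16, limma, adjusted p = 3.06e-07). Of 6 genes of the eIF2 kinase and stress response, Xrp1, a stress transcription factor, was the one called from L3 to 0h, where it fell from 178 to 267 down to 68 to 99 (-1.40 ± 0.22, limma, adjusted p = 5.54e-06). It was higher in EcR-DN over the pupal mean (718.5 against 298.9, 1.33 ± 0.21, limma, adjusted p = 2.8e-06). No eIF2 kinase changed in either comparison.

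Among 11 genes that control cap binding, 2 fell from L3 to 0h. They were 4EHP, a cap-binding repressor that does not bind eIF4G (2438 to 3317 down to 1356 to 1621, -0.95 ± 0.20, limma, adjusted p = 0.000442), and Thor, the eIF4E-binding protein 4E-BP, with at most 10 at L3 and at most 1 at 0h (limma, adjusted p = 0.0366), low values that overlapped. Over the pupal mean in EcR-DN 2 were higher and 1 lower, against 10.6% and 5.87% of all genes, and those higher were 4EHP (1.10 ± 0.19) and Lk6, the kinase of eIF4E (1.19 ± 0.16, limma, adjusted p = 1.65e-07). In Sox14 RNAi 1 changed, where 11.6% of all genes did, the growth kinase S6k (645.8 against 1297, -0.93 ± 0.11, limma, adjusted p = 1.07e-08). Among 8 elongation and termination factors 1 rose from L3 to 0h, none fell, and 5 were lower in adults than at L3, against 10.6% of all genes. The one that rose was eRF1, the release factor that reads stop codons, from 357 to 476 up to 920 to 1358 (1.47 ± 0.25, limma, adjusted p = 1.44e-05). eRF1 was lower over the pupal mean in EcR-DN and Sox14 RNAi (-0.70 ± 0.16 and -0.89 ± 0.15, limma, adjusted p = 0.000858 and 3.5e-05) and higher at 6h in the libraries labelled E75 RNAi (1.15 ± 0.28, limma, adjusted p = 0.00453). These perturbation values share Control libraries. In adults Ef1alpha48D, which delivers aminoacyl-tRNA, was 179.5 against 1467 at L3 (-3.03 ± 0.22, limma, adjusted p = 4.18e-17).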

How the data were processed

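Per the labels, 3′ end poly(A) libraries were made by MARS-seq from sorted cells. The deposited values are a score, normalised counts that the authors rounded to whole numbers by a method not given in the sources used here. Per the submitters' processing notes the tools were bcl2fastq, HISAT 0.1.5 and HOMER, listed with no role or genome build, so no coordinates or sequences are printed and a planned search of promoters for motifs was not run. Each table was analysed alone. Tests ran on log2(value + 1), which can understate changes of low genes, while single values at or near 0 can enlarge them. For eIF-2gamma in astrocyte-like glia the change was -2.05 on this scale and -1.24 with pseudocount 8. The tests took the 8320 developmental genes that reached 10 in 3 or more libraries and the 8656 perturbation genes that did so in 2 or more. limma 3.58.1 in R 4.3.3 fitted one mean per group to the whole table, with a variance trend, and p-values were adjusted by Benjamini-Hochberg within each comparison, over all its genes, at a threshold of 0.05. A ± after a log2 value is a standard error. The fit was run on simulated data with independent noise and no outlying libraries, so that run cannot show how such libraries affect the calls. Descriptive values used Python 3.11.15. Genes were paired with current names and overlapping genes through a Release 6 annotation. Depth before normalisation is unknown, so no counting intervals are given. Genes named are the 8 with the smallest F test p, the 2 called genes with the largest change each way per comparison (the higher group averaging 50 or more), all paralogs of eIF4E, eIF4A, eIF4G and eIF5A with a mean of at least 10, and at most 4 called genes per pathway list. The members and lists were chosen with earlier results of these data known. Alternatives were other scalings, pseudocount 8, other filters, robust variances, a replicate block, smaller fits and each library left out. No pair of libraries was identical. Replicate numbers or letters were not treated as pairs.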

Additional observations from a re-analysis of the deposited data

Results flagged for a closer look

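Of 221 groups of 4 libraries checked for single initiation factor genes, 11 held a library far from the other 3, where chance gives about 1 in 20. Among γ neuron stages, eIF-5A was 74 in library 2 at 24h and 778 to 887 in the others, eIF-1A was 863 in library 3 at 12h against 636 to 667, and eIF-4a was 1831 in library 4 at 18h against 1500 to 1535. In library 1 at 9h both eIF4G (573 against 340 to 375) and eIF2D (28 against 11 to 13) stood apart. eIF-2gamma was 129 in library 1 at 27h against 98 to 100. eIF3-S8 was 177 in library 2 at 15h against 170 to 171, a gap that is small in value.

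Among adult types, eIF3-S9 was 322 in αβ library 3 against 502 to 533, and eIF-4a was 1599 in αβ library 1 against 1933 to 1997. eIF3-S10 was 298 in non-MB library 2 against 180 to 187. eIF4G2 was 255 in astrocyte-like library 2 and at most 171 in the others.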

How the results depend on the processing

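Across 69 changes of single genes and 1391 values under alternatives, 1181 stayed on their side of the threshold, 210 no longer passed and 0 reversed, and 32 changes passed under every alternative. Of 811 counts of changed genes, 698 stayed within 1.5 times, and the cause of the other shifts was not tested. Equal library totals gave 2 changed genes at 18h against 6h, 1 for E75 RNAi at 12h, 1 for Sox14 RNAi at L3, 2 for its pupal mean and 1 for Control 6h against 0h. Pseudocount 8 gave 2 at 18h against 6h, 2 for EcR-DN at 6h and 1 for Sox14 RNAi at L3. No filter gave 2 for EcR-DN at 6h, 1 for E75 RNAi at 6h, 1 for Sox14 RNAi at L3, 2 for its pupal mean and 1 for Control 6h against 0h. A minimum of 50 gave 2 at 18h against 6h, 3 for EcR-DN at 6h, 1 for E75 RNAi at 12h, 1 for Sox14 RNAi at L3, 2 for its pupal mean and 1 for Control 0h against L3. The change of the E75 RNAi effect from 0h to 6h had 1 under median-of-ratios scaling, no filter and a minimum of 50. Robust variances gave 2 at 6h against 0h, 1 at 6h against L3, 0 for EcR-DN at 6h, 3 for its pupal mean, 0 for E75 RNAi at 6h, 1 for Sox14 RNAi at 6h and 4 for E75 RNAi against Sox14 RNAi. A fit to only the groups compared gave 1 at 0h against L3, 2 at 6h against 0h, 2 at 18h against 6h, 4 at 6h against L3, 6 for adult against 30h and against L3, and 7 for γ against non-MB neurons. It gave 0 for EcR-DN at 6h, the E75 RNAi pupal mean, Sox14 RNAi at 0h and Control 6h against L3, 1 for E75 RNAi and Sox14 RNAi at 6h, and 4 for E75 RNAi against Sox14 RNAi. Without the astrocyte-like libraries there were 2 at 18h against 6h, 4 at 6h against L3, 5 for adult against 30h and against L3, and 1 for γ against αβ neurons. Without the doubted Sox14 RNAi libraries, an alternative chosen after seeing the data, there were 1 at L3, 1 at 0h and 5 for EcR-DN against Sox14 RNAi.

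Leaving out one library at a time gave 9 to 11 genes for the F test, 1 to 4 at 0h against L3, 2 to 3 at 6h against 0h, 1 to 2 at 18h against 6h, 0 to 2 at 6h against L3, 2 to 3 for adult against 30h and 2 to 4 against L3. It gave 0 to 1 for γ against αβ, 3 to 4 against non-MB and 13 to 17 for astrocyte-like glia. EcR-DN had 1 at L3, 2 to 3 at 0h, 0 to 1 at 6h, 0 to 1 at 12h and 3 to 5 for the pupal mean. E75 RNAi had 0 to 1 at 0h, 6h and 12h and 1 to 3 for the pupal mean, and Sox14 RNAi 1 to 2 at 0h, 0 to 2 at 6h and 1 to 2 for the pupal mean. EcR-DN against Sox14 RNAi had 1 to 5, EcR-DN against E75 RNAi 3 to 6 and E75 RNAi against Sox14 RNAi 4 to 7. Control had 0 to 1 at 0h against L3, 0 to 1 at 6h against 0h and 0 to 2 at 6h against L3, and the 6h against 0h effects of E75 RNAi and Sox14 RNAi 0 to 1. Where 1 library was left in a group, it is assumed to vary like the other groups.

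On average, libraries with the same number did not deviate together (mean correlation 0.0023 over 483 pairs, 4 above 0.1). In the perturbation table the mean was -0.0028 over 287 pairs, 0 above 0.1. A mean over pairs cannot show whether some of these libraries shared a sort or a day. With the replicate block the count for E75 RNAi at 6h went from 2 to 1, and eIF3ga in EcR-DN had an adjusted p of 0.0558 (limma).

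Equal totals moved the median of all genes by -0.19 for adult against 30h, 0.16 for 6h against 0h, 0.18 for Control 6h against 0h and -0.16 for E75 RNAi at 6h, and the share of higher calls among all genes from 49.8 to 35.7%, 52 to 64.9%, 50.7 to 62.9% and 56.6 to 44.6%. For Sox14 RNAi at 0h and E75 RNAi against Sox14 RNAi that share went from 41.8 to 56.1% and 48.5 to 35%. Depth before normalisation is unknown, so low genes such as the eIF2B subunits cannot be given a counting error.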
